A study of Homo sapiens and Mus musculus with 6 samples.

Results

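The trans-chromosomal contacts of mouse embryonic stem cells (mESCs) were described at the scale of 1-Mb bins, from the list of bin pairs that HOMER gave for 1 Hi-C library, at an FDR of up to 0.0976. Members were the listed pairs whose bins lie on different chromosomes and both start at 10 Mb or later, with each pair counted once. There were 9388 such pairs among 25147 listed pairs of 1-Mb bins and 10899 listed trans pairs. The study also holds Promoter Capture Hi-C (CHi-C) of 2 mESC replicates, and of 3 replicates of the human line GM12878, which were not analysed here. Hi-C ligates DNA ends that were crosslinked close to each other in the nucleus, and CHi-C enriches such ligation products for promoter fragments. The mESCs were of the J1 line (129S4/SvJae), grown with 15% FBS on irradiated embryonic fibroblasts that were removed by short passages at harvest, and DNA was cut with HindIII after fixation in 2% formaldehyde. The cells were unperturbed, so there is no second condition, and DNA contacts give no expression markers with which to check the cell label. With 1 library there is no spread between replicates, and all intervals below are 95% intervals that cover counting error only. Bin pairs that share a bin are not independent, so intervals for shares of bin pairs are likely too narrow.

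Each chromosome occupies its own territory in the nucleus, and contacts between chromosomes occur where territories meet or intermingle. Gene-rich, GC-rich and transcribed chromatin (the A compartment) tends to lie in the nuclear interior and to contact other such chromatin, while gene-poor chromatin tends to lie at the lamina or the nucleolus. Loops of gene-dense DNA can also gather at nuclear speckles, bodies rich in splicing factors, and genes held by Polycomb proteins can contact each other over long distances.

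Promoters of 4 genes are shown because they lie in gene-dense bins with many and with few contacts. Rpl10a and Rpl19 encode proteins of the large ribosomal subunit and Eef2 encodes the translation elongation factor that moves the ribosome along mRNA, and their bins had 107, 108 and 106 trans partners, where a partner is a bin on another chromosome in a listed pair. Olfr243 encodes an olfactory receptor, and its bin, which is also rich in genes, had 4. The sequences are the 250 bases before the annotated gene start in NCBIM37, the assembly of mm9, 5′ to 3′ on the strand of the gene, with each CG dinucleotide in capitals.
Rpl10a promoter (chr17:28465166-28465415, plus strand): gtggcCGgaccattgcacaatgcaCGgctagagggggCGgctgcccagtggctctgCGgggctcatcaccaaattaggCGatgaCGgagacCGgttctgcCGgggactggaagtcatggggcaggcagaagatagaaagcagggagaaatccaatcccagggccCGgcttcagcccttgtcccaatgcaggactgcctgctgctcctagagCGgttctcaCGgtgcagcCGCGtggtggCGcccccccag
Rpl19 promoter (chr11:97887774-97888023, plus strand): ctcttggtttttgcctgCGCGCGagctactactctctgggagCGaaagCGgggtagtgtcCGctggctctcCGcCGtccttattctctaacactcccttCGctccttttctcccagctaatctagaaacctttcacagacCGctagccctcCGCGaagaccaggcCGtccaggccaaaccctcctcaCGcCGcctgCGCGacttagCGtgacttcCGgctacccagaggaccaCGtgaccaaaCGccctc
Eef2 promoter (chr10:80639126-80639375, plus strand): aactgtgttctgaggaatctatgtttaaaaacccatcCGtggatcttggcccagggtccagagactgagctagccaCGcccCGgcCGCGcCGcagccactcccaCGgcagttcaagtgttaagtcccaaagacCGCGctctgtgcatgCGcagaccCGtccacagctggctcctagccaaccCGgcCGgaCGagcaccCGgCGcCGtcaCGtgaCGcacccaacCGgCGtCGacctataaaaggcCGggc
Olfr243 promoter (chr7:110864860-110865109, plus strand): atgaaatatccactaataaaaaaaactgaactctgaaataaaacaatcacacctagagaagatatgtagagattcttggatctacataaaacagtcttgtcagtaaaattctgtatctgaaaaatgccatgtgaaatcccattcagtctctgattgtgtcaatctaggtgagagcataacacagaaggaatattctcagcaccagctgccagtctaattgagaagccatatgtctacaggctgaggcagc
The promoters of Rpl10a, Rpl19 and Eef2 hold 14, 21 and 23 CG dinucleotides at a GC content of 64, 60 and 62.8%. That of Olfr243 holds 0 at 37.2%. Over the 20743 promoters of this length in the bins analysed, the median number of CG was 5 in bins with 0 partners, 6 with 1 to 4, 9 with 5 to 19 and 12 with 20 or more. The letters GGGCGG or their complement CCGCCC, the core of the GC box, were searched on both strands and occurred in 40.1% of all these promoters. By the same classes of bins the share was 31.3, 35.3, 40.9 and 48.8%, and of the 4 promoters shown only that of Rpl10a holds the letters.

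The 9388 pairs were joined by 7 to 189 read pairs each, with a median of 34 where the median of the expected reads was 16.3. Per the methods, the expected reads come from a coverage-related background. In trans they were the product of a factor for each bin, which the read ends of the bin alone do not fix. The ratio of reads to expected reads had a median of 2.06, lay between 1.91 and 2.32 for the middle of the distribution (quartiles) and reached 23.3. An FDR under 0.05 was listed for 6090 members, or 64.9%, and 64.8% of all listed trans pairs passed that threshold. A ratio of at least 3 was reached by 518 pairs (5.52%) and of at least 5 by 61. A pair could be listed at a lower ratio where more reads were expected, since the lowest listed ratio fell from 2.81 at up to 5 expected reads to 1.57 above 25. Shares of listed pairs therefore depend on the expected reads. The bins counted here are the 2395 that start at 10 Mb or later on the 20 chromosomes and occur in a listed pair, cis or trans. They held 146972836 read ends, between 12173 and 121335 per bin. Bins in no listed pair were left out. Counts of bins without partners and numbers of possible pairs therefore cover listed bins only.

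Most bins had few trans partners and a small number had many. The median was 4 partners, the quartiles were 2 and 7, and 140 of the listed bins (5.85%) had none. At the other end, 184 bins (7.68%) had at least 20 partners, and the highest number was 113. The 240 best-connected bins, each with at least 15 partners, took part in 5896 pairs (62.8%), and 4252 pairs (45.3%) joined 2 of them. Among the 30 best-connected bins, which lie on 12 chromosomes, 348 of 395 possible trans pairs were listed (88.1%), at a median ratio of 2.65. Over all 2715124 possible trans pairs of the listed bins, 0.346% were listed. For each of the 12 bins with most partners, 88.5 to 96.9% of the partners were among the 240. Bins were ranked by their listed pairs, so high shares of listed pairs among the best-connected bins are partly fixed by that ranking.

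The bin with most partners lies on chromosome 8 and holds Rpl13, which encodes a protein of the large ribosomal subunit (125626250 to 125629144). It met 113 bins on 18 chromosomes at a median ratio of 2.19, and it holds 29 protein-coding gene starts, where the median of all bins was 6. Among the others are Spg7, which encodes a mitochondrial protease, and the zinc finger gene Zfp276. Chromosome 11 contributed 4 of the 12 bins with most partners. Its bin from 97 to 98 Mb had 108 partners and holds Rpl19 (97888024 to 97891806) and Rpl23, which encodes another protein of the large subunit. Its bin from 120 to 121 Mb had 104 partners and 47 gene starts, among them Arhgdia and Thoc4, an mRNA export factor. The bin from 116 to 117 Mb also had 104, with Foxj1, the transcription factor of motile cilia, and Srp68 of the signal recognition particle. The bin from 119 to 120 Mb had 100 partners with 17 gene starts, the fewest among the 12.

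Chromosome 17 contributed 2 bins. The bin from 28 to 29 Mb had 107 partners and holds Rpl10a of the large ribosomal subunit, and the bin from 26 to 27 Mb had 93 and holds the heart transcription factor gene Nkx2-5. On chromosome 10, the bin from 80 to 81 Mb had 106 partners at a median ratio of 2.79, the highest of the 12. It holds 59 gene starts, more than 99.6% of the bins, among them Eef2 (80639376 to 80645252) and Mrpl54 of the mitochondrial ribosome. On chromosome 15, the bin from 79 to 80 Mb had 104 partners at a median ratio of 2.48 and holds Rpl3. The bins on chromosome 3 from 88 to 89 Mb (103 partners, with Rab25 and the osteocalcin gene Bglap), on chromosome 5 from 115 to 116 Mb (102, with the dynein light chain gene Dynll1) and on chromosome 2 from 30 to 31 Mb (96, with Lrrc8a of the volume-regulated anion channel) complete the 12. In these bins GC content was 46.8 to 53.7%, against quartiles of 38.8 and 44.2% over all bins, and the number of HindIII sites was 179 to 286, against 301 and 343. Read ends ranged from 44490 to 92513, so the bins lay on both sides of the median of 63796.

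Of the 59 possible trans pairs of these 12 bins, 57 were listed, at a median ratio of 3.07 (1.91 to 6.02). The bins were chosen by their listed pairs, so a high share is partly fixed by that choice. The Eef2 bin and the Rpl19 bin were joined by 79 reads where 13.1 were expected, a ratio of 6.02 (4.77 to 7.51), and 5 of the 8 surrounding bin pairs were listed as well. The Eef2 bin met the Rab25 bin with 51 reads over 9.72 expected (5.24, 3.91 to 6.90) and the Rpl3 bin with 49 over 9.78 (5.01, 3.71 to 6.62). The bins on chromosome 2 from 30 Mb and on chromosome 17 from 28 Mb met with 72 reads over 15.4 (4.67, 3.66 to 5.89), and all 8 surrounding pairs were listed. Over all members, 5217 pairs (55.6%) had no listed neighbour, at a median ratio of 2.02, and 1116 pairs (11.9%) had 4 or more, at 2.35.

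Gene density was higher in bins with more partners. Bins with 0 partners held 6.26 ± 7.50 protein-coding gene starts (mean ± SD over 140 bins), bins with 1 to 4 held 6.28 ± 7.52 (1263 bins), bins with 5 to 19 held 9.05 ± 9.0 (808 bins) and bins with at least 20 held 25.2 ± 13.1 (184 bins). No bin of the last class was without a gene start, whereas 17.1% of the bins with 0 partners were. These 184 bins hold 22.3% of the gene starts. GC content was 40.9 ± 3.37% in the class with 0 partners and 47.5 ± 2.51% in the class with at least 20. The mean number of CHi-C baits with a call was 3.89 and 21.0 per bin in the same classes. Median read ends were 53860 and 69615 per bin. In bins with read ends within the quartiles, the best-connected bins held 3.53 times as many gene starts as the others. In the plot of gene number against partners, most bins with few genes had few partners, while gene-dense bins spread over the whole range. Exceptions, chosen after their values were seen, are the bin 17-30 (chromosome 17, from 30 Mb), with 6 gene starts and 53 partners, and the bin 11-111 (chromosome 11, from 111 Mb), with 0 gene starts and 19 partners.

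**Figure D1:**
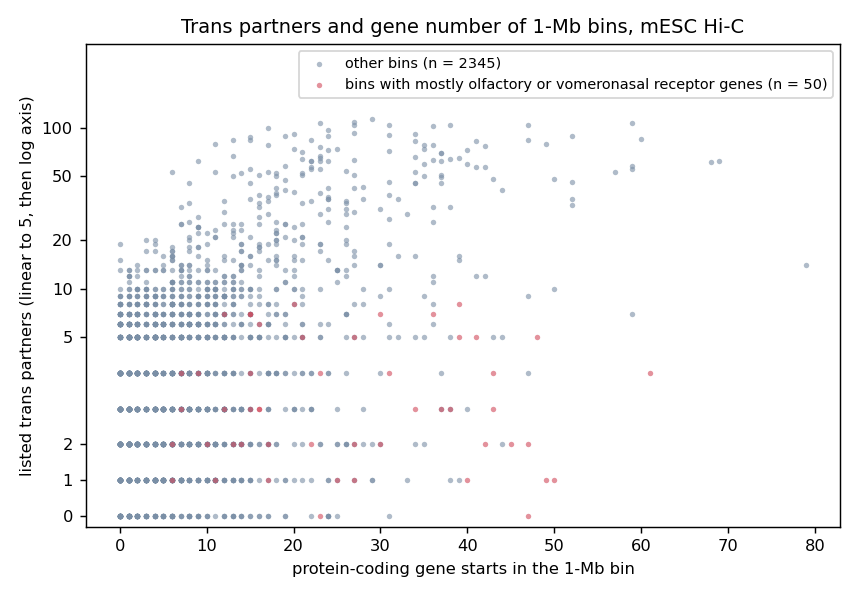
Each point is 1 of the 2395 bins, with its protein-coding gene starts on the x axis and its listed trans partners on the y axis (linear to 5, log above). Bins with over 20 partners mostly hold over 10 gene starts, and bins in which most genes are olfactory or vomeronasal receptors (red) do not exceed 8 partners.

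Over the 2395 bins, partners and gene starts correlated with Pearson's r = 0.521 and Spearman's rho = 0.337. The values for GC content were 0.488 and 0.331, and for read ends 0.190 and 0.318. The 3 measures are related among bins (rho of 0.693 between gene starts and GC content), neighbouring bins share them, and all bins come from the same library, so these are descriptions. Leaving out the 184 bins with at least 20 partners lowered rho with gene starts to 0.197. For the 240 best-connected bins, the mean was 22.8 gene starts against 7.08 in the other bins, 3.22 times as many.

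The contacts also sorted by the gene number of both bins. Expected reads could be computed for 89.3% of the possible pairs, since in the list they are the product of a factor for each bin to within 0.0000176%. The 132 bins without a factor were left out here, and 124 of them had 0 partners. Pairs of 2 bins with at least 16 gene starts were listed in 5.31 of 100 possible cases (3510 pairs, interval 5.15 to 5.49). Pairs of 2 bins with at most 2 gene starts were listed in 0.239 (0.219 to 0.261), and pairs of a bin of each kind in 0.0698 (0.0600 to 0.0812). Gene-poor bins were thus listed more often with gene-poor than with gene-dense partners, and the intervals do not overlap. With all 2395 bins the 3 values were 4.98, 0.204 and 0.0624. To lessen the part of coverage in a listing, only possible pairs with at least 10 expected reads were then taken, and those with a ratio of at least 2.5 counted. At such a ratio every pair could have been listed, since the lowest listed ratio was 2.10 at 10 to 11 expected reads. By this measure the 3 values were 1.31 (740 pairs, 1.22 to 1.41), 0.00925 (11 pairs, 0.00516 to 0.0166) and 0.00284 (5 pairs, 0.00121 to 0.00665) per 100. The order remained, with overlapping intervals for the latter values. Expected reads still differed between the classes above that floor. At 10 to 15 expected reads the values were 1.83 (1.67 to 2.02), 0.0111 (10 pairs, 0.00605 to 0.0205) and 0.00465 (5 pairs, 0.00198 to 0.0109). At 20 or more, 72 of 10049 pairs of gene-dense bins reached the ratio, at 0.716 per 100 (0.569 to 0.901), and none of the 3934 pairs of gene-poor bins did, for which the Wilson upper limit is 0.0976.

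**Figure D2:**
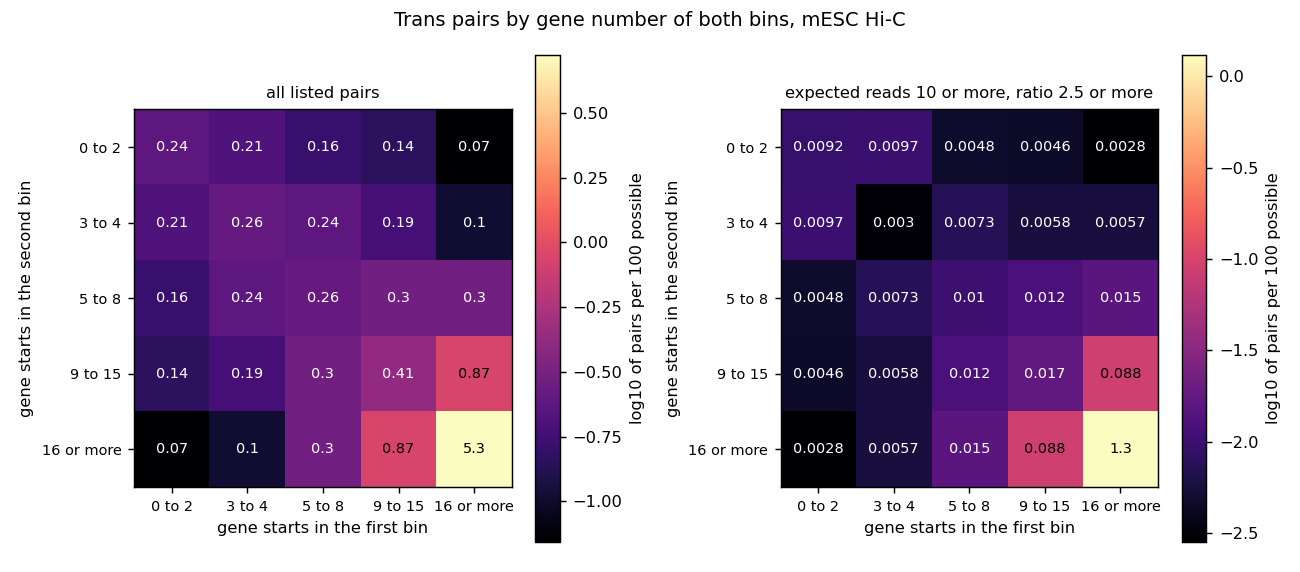
Each cell gives the trans pairs per 100 possible pairs for bins grouped by protein-coding gene starts (colour on a log10 scale), on the left for all listed pairs and on the right for possible pairs with at least 10 expected reads that reached a ratio of at least 2.5. The highest cell joins 2 bins with at least 16 gene starts (5.31 and 1.31), and the lowest cell on both sides joins the most gene-dense and the most gene-poor class.

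Gene-dense bins differed widely in their number of partners. Of the 388 bins with at least 16 gene starts, 142 (36.6%) had at least 20 partners and 117 (30.2%) had under 5. In 35 of the 388, most genes are olfactory receptors, which serve the sense of smell, or vomeronasal receptors, which detect pheromones, and these bins had a median of 3 partners (0 to 8). The other 353 had a median of 13 and up to 113. The bin on chromosome 7 from 110 to 111 Mb, with Olfr243, holds 61 gene starts, 55 of them olfactory receptors, and had 4 partners. The bin next to it, from 111 to 112 Mb, holds 47 gene starts, 29 of them olfactory receptors, and had none. GC content was 39.3 ± 2.13% in the 35 receptor bins and 45.9 ± 2.87% in the others, and median read ends were 44240 and 66073. The part of GC content and coverage in this difference was not tested.

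Chromosomes differed in how often their bins met others. Of all possible pairs of listed bins, chromosome 11 was listed in 0.853 per 100, chromosome 17 in 0.598, chromosome 15 in 0.506, chromosome 4 in 0.5 and chromosome 8 in 0.478. The lowest values were those of chromosome X, at 0.125, chromosome 13, at 0.217, chromosome 6, at 0.218, and chromosome 1, at 0.221. Chromosome 11 also had the highest mean number of partners per bin, 19.5 with 13.9 gene starts per bin, and chromosome X the lowest, 2.81 with 5.48. Chromosome 7 holds as many gene starts, 14.0 per bin, but had 6.59 partners. Without olfactory and vomeronasal receptors, chromosomes with more genes per bin were listed more often over the 20 chromosomes (r = 0.813, rho = 0.814). With receptors included the values were 0.708 and 0.744. For these descriptions the points are chromosomes of 1 library.

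Coverage differed between chromosomes. Median read ends per bin were 88473 on chromosome 11 and 85623 on chromosome 8, between 58211 and 68302 on the other autosomes and 26187 on chromosome X. Whether chromosomes differed in copy number in this culture was not tested. Over all 20 chromosomes, the correlation of listed pairs with median read ends was 0.618 (rho = 0.353). Without chromosomes 8, 11 and X, the correlation of listed pairs with genes without receptors was 0.649 (rho = 0.748), and with read ends it was 0.00430 (rho = 0.0417). These 3 chromosomes have the most extreme read ends, and without them the range of read ends is narrow. The last value therefore does not test the part of coverage. With pairs of at least 10 expected reads and a ratio of at least 2.5, chromosome 17 came first, at 0.143 per 100 (0.124 to 0.165). Here too the 132 bins without a factor, 124 of them with 0 partners, were left out. The same holds for this measure in chromosome pairs and in pairs of last bins. It was followed by chromosome 11, at 0.133 (0.119 to 0.149), chromosome 15, at 0.111 (0.0962 to 0.129), and chromosome 4, at 0.0995 (0.0874 to 0.113), whose neighbouring intervals overlap. Chromosome 8 was at 0.0599 (0.0506 to 0.0709). Chromosome 1 was lowest, at 0.00785 (0.00523 to 0.0118). For chromosome X only 11539 possible pairs had so many expected reads, of which 3 reached the ratio, at 0.0260 per 100 (0.00884 to 0.0764), and the value for pairs of autosomes, 0.0530, lies within that interval. At 5 to 10 expected reads and a ratio of at least 3, pairs with X reached 0.00664 per 100 (13 pairs, 0.00388 to 0.0114) and pairs of autosomes 0.0276 (75 pairs, 0.0220 to 0.0346). The share of pairs with X was thus lower at 5 to 10 expected reads, and at 10 or more its interval holds the autosome value. These are descriptions, since pairs share bins and few pairs with X reached the ratios.

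All 190 pairs of chromosomes had a listed pair of bins. The highest density was that of chromosomes 11 and 17, at 1.87 listed pairs per 100 possible (180 pairs, 1.62 to 2.16), against a median of 0.259 over the chromosome pairs. Chromosome 11 was a member of each of the 6 densest pairs. It had 1.58 with chromosome 15 (1.36 to 1.83), 1.57 with chromosome 4 (1.39 to 1.77) and 1.51 with chromosome 8 (1.31 to 1.73), which do not differ beyond their intervals. It had 1.36 with chromosome 5 (1.19 to 1.55) and 1.19 with chromosome 2 (1.04 to 1.35). Pairs of 2 best-connected bins made up 82.8% of the listed pairs between chromosomes 11 and 17 and at least 66.8% in the other 5. The 4 lowest densities were those of chromosome X with chromosomes 19 (0.0692, 5 pairs), 7 (0.0763), 10 (0.0839) and 9 (0.0884). Among pairs with at least 10 expected reads and a ratio of at least 2.5, chromosomes 4 and 11 had 0.393 per 100 (58 pairs), chromosomes 11 and 15 had 0.381 (38), chromosomes 7 and 17 had 0.369 (27), chromosomes 15 and 17 had 0.364 (21) and chromosomes 2 and 17 had 0.298 (33). Chromosomes 11 and 17 came 7th by this measure, at 0.268 (23). A single pair among 176 put chromosomes 5 and X first.

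**Figure D3:**
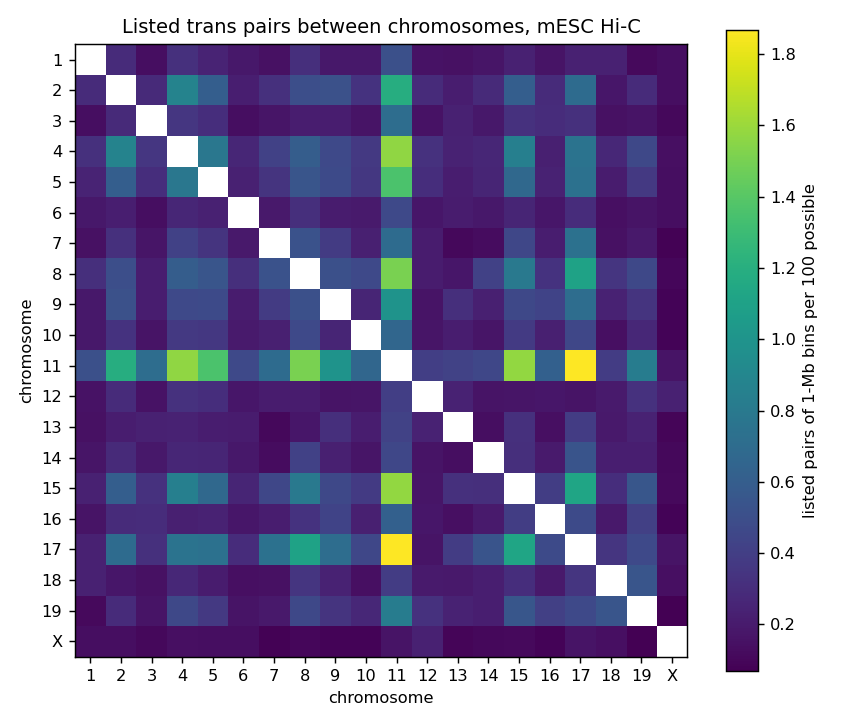
The colour of each cell gives the listed trans pairs of 1-Mb bins per 100 possible pairs for 2 chromosomes (bins from 10 Mb on, cis left white). Chromosome 11 stands out with chromosomes 17 (1.87), 15 (1.58) and 4 (1.57), and the row of chromosome X runs from 0.0692 to 0.238, below the median of all chromosome pairs (0.259).

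Bins near the distal chromosome end had a higher mean number of partners. Mouse chromosomes have their centromere at the proximal end, which was left out here, so the distal end is the only true end among these bins. Bins within 10 bins of the distal end had 13.2 ± 21.9 partners (mean ± SD, 198 bins) and 10.1 ± 10.4 gene starts, and bins at least 80 away had 5.93 ± 8.67 partners (837 bins) and 7.14 ± 9.04 gene starts. Medians were 7.5 partners for the last listed bins of the chromosomes and 8.5 for the bins next to them (20 bins each). They were 5 for bins 2 to 4 from the end, 3 for bins 5 to 9 from it and 4 for bins at least 80 away. The part of gene density in the difference of the means was not tested.

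The last listed bins of the chromosomes, called last bins here, met each other. Of the 190 possible pairs of 2 last bins, 53 were listed (27.9%, interval 22 to 34.7%), at a median ratio of 3.41 (1.72 to 23.3). For pairs of bins next to the last, 15 of 190 were listed (7.89%, 4.84 to 12.6%), at a median ratio of 2.17, and at a distance of 8 and 9 bins none of 190 was. Last bins had on average 10.4 partners and 10.0 gene starts, and bins next to the last had 18.9 and 12.8. Most last bins are shorter than 1 Mb, so these counts per bin do not compare gene density, whose part was not tested. Pairs of last bins made up 12 of the 61 members with a ratio of at least 5. The last bins of 18 chromosomes were in at least 1 listed pair of last bins, with chromosome 5 in 12, chromosome 11 in 11 and chromosome 19 in 10. Those of chromosomes 13 and X were in none. Last bins were from 0.257 to 1 Mb long (17 of them truncated, whereas those of chromosomes 1, 9 and 14 are whole bins and may not reach the end) and had a median of 33194 read ends. In the 61 pairs of last bins with at least 10 expected reads, 12 had a ratio of at least 2.5, or 19.7%.

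**Figure D4:**
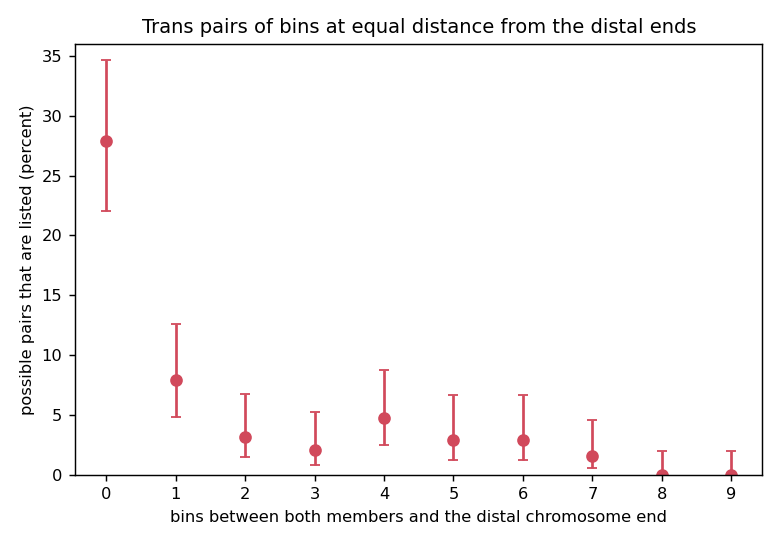
Each point gives the percentage of possible trans pairs that were listed, with Wilson 95% intervals for counting error. Both bins lie the same number of bins from the last listed bin of their chromosome. The share was 27.9% for pairs of last bins, 7.89% for the next and under 5% at each further distance.

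The highest ratio of all belonged to the ends of chromosomes 8 (131 to 132 Mb, with Itgb1 of the integrin receptors) and 17 (95 to 96 Mb, with Mettl4), joined by 162 reads where 6.97 were expected, a ratio of 23.3 (19.8 to 27.1). The bins had 6 and 7 partners in all, where the median of all bins was 4. The ends of chromosomes 10 and 19 met with 88 reads over 7.62 (11.6, 9.27 to 14.2), and those of chromosomes 17 and 19 with 22 over 2.73 (8.05, 5.04 to 12.2). The other 7 of the 10 strongest pairs with at least 20 reads lay inside chromosome arms. A bin on chromosome 8 from 77 Mb, with the haem oxygenase gene Hmox1, met an olfactory receptor bin on chromosome 14 from 51 Mb with 165 reads over 14.0 (11.8, 10.1 to 13.8), and none of the surrounding pairs was listed. A bin on chromosome 4 from 146 Mb, with Zfp600, was in 2 of the 10, with a bin on chromosome 12 from 20 Mb (25 reads over 1.97, a ratio of 12.7, 8.21 to 18.7) and with a bin of vomeronasal receptors on chromosome 6 from 58 Mb (65 over 6.88, 9.44, 7.29 to 12). The remaining pairs joined chromosomes 12 (47 Mb, Nova1) and X (107 Mb) at 9.81, chromosomes 1 (83 Mb) and 2 (95 Mb) at 8.37, chromosomes 3 (99 Mb, Tbx15) and 15 (33 Mb, Tspyl5) at 8.10 and chromosomes 2 (73 Mb, Sp9) and 4 (105 Mb, Usp24) at 8.08.

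The pairs with the highest ratios were mostly not pairs of best-connected bins. Of the 61 members with a ratio of at least 5, 16 (26.2%) joined 2 best-connected bins and 30 (49.2%) had a bin with under 5 partners. At a ratio of 3 to 5 these shares were 64.8 and 26.5% of 457 pairs. The mean number of gene starts was 16.8 per bin at a ratio of at least 5 and 26.9 at 3 to 5. The number of partners and the ratio come from the same reads, so these shares are descriptions.

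**Figure D5:**
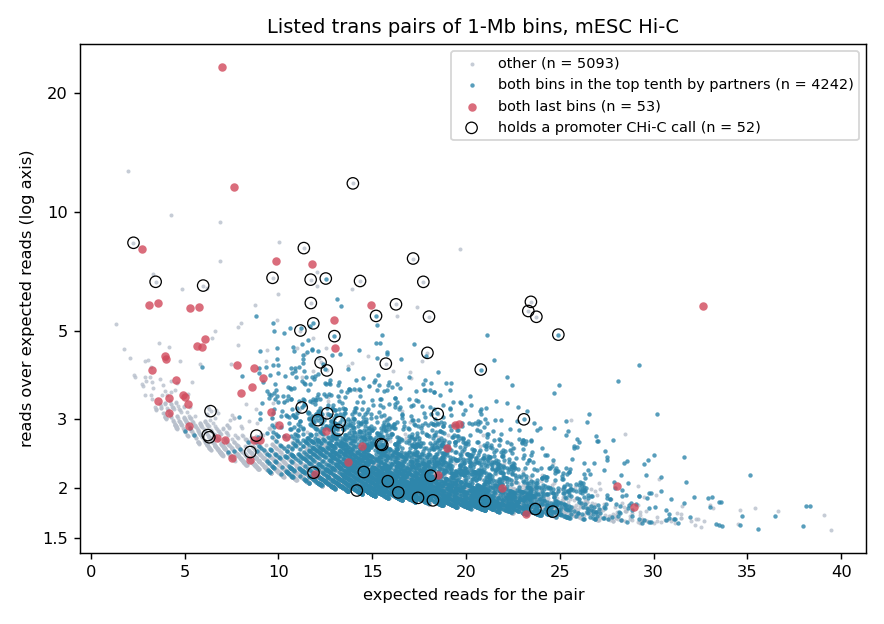
Each point is 1 of the 9388 listed pairs, with expected reads on the x axis and reads over expected reads on the y axis (log), with pairs of 2 last bins in red, other pairs of 2 best-connected bins in blue and pairs with a CHi-C call circled. The lower edge falls from 2.81 to 1.57 toward higher expected reads, and the highest point, at 23.3, joins the ends of chromosomes 8 and 17.

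The gene families taken as lists differed in their numbers of partners, which are given as descriptions. The bins of cytosolic ribosomal protein genes, taken by symbol, had a median of 6 partners (129 bins, 27.1% with at least 20) where all bins had a median of 4 and 7.68%. Without kinases and genes whose name marks a pseudogene, 68 bins remained with a median of 10 and 38.2%. These 68 bins held a median of 19.5 gene starts, against 6 over all bins. Of all bins with at least 16 gene starts, 36.6% had at least 20 partners. The part of gene density in the values of these lists was not tested. The 20 bins of pluripotency genes had a median of 7. Lin28a, an RNA-binding repressor of let-7 maturation, lies in a bin with 91 partners (chromosome 4, 133 to 134 Mb), Pou5f1, the core pluripotency factor, in one with 61 (chromosome 17, 35 to 36 Mb) and Sall4 in one with 24. Sox2 had 13 in a bin with 1 gene start, Esrrb 9 and Klf4 7. The bin shared by Nanog and Dppa3 had 3 partners although it holds 20 gene starts, and that of Nr0b1 on chromosome X had none. Of 15 bins with housekeeping genes, 3 exceeded 20 partners, among them those of Eef2 (106) and Tubb5 (61). Gapdh had 10, Actb 6 and Eef1a1 1, so the median of 7 was no higher than that of the pluripotency genes.

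Gene families of developmental regulators that Polycomb proteins often bind were taken by symbol, and binding of each gene in these cells was not checked. They lay in 99 bins with a median of 6 partners, 22.2% of them with at least 20. The bins of Foxj1 (104), Nkx2-5 (93) and Foxh1 (84) led. Small nuclear and nucleolar RNA genes lay in 65 bins with a median of 9 and 30.8%. Zfp genes lay in 186 bins with a median of 5 and 21%. Median gene starts per bin were 10, 19 and 17 for these lists in turn, against 6 over all bins. Keratin genes proper lay in 3 bins with 59, 32 and 14 partners, and the list by symbol, which takes in Krtcap2 and Krtcap3, in 10 bins with a median of 13. Clustered histone genes lay in 8 bins with a median of 4, of which only that on chromosome 3 from 96 Mb (29 partners) exceeded 20. Immunoglobulin and T cell receptor genes (15 bins), olfactory receptors (81 bins) and vomeronasal receptors (40 bins) had medians of 4, 4 and 3. The single bin of the protocadherin cluster had 1 partner with 29 gene starts.

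The Hox genes, which pattern the body axis and are bound by Polycomb proteins in embryonic stem cells, form 4 clusters on 4 chromosomes. The Hoxb bin (chromosome 11, 96 to 97 Mb) had 54 partners and the Hoxc bin (chromosome 15, 102 to 103 Mb) had 53, against 10 for Hoxd (chromosome 2, 74 to 75 Mb) and 5 for Hoxa (chromosome 6, 52 to 53 Mb). Of the 6 pairs of clusters, 4 were listed. Hoxb and Hoxc were joined by 122 reads where 24.9 were expected (4.90, 4.07 to 5.85). Hoxa and Hoxb had 76 reads over 25.6 (2.97, 2.34 to 3.72), Hoxb and Hoxd 57 over 24.6 (2.31, 1.75 to 3.00) and Hoxa and Hoxc 51 over 23.0 (2.21, 1.65 to 2.91). The interval of Hoxb with Hoxc lies above the others, which overlap. The pairs of Hoxd with Hoxa and with Hoxc were not listed, at 22.8 and 22.2 expected reads.

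The paper calls the mESC Hi-C dataset pre-capture, so Hi-C and CHi-C of these cells may share ligation products. Their overlap is therefore not taken as independent. Promoter CHi-C of the same cell type gave 101841 calls, of which 579 were trans and 469 joined bins of the Hi-C list that start at 10 Mb or later. Of these, 237 lay in a member pair (50.5%, interval 46.0 to 55.0%). A contact of 2 baits can enter as a call from each, and calls cluster in bin pairs, so this interval is too narrow. Calls were concentrated, since 1 pair of bins held 79 and another held 42. Without these, 116 of 348 calls lay in a member pair (33.3%), and with each pair of bins counted once, 52 of 256 (20.3%, 15.8 to 25.7%). Among members, 52 held a call (0.554%), compared with 0.00943% of all possible pairs. The share was higher at higher Hi-C ratios, with 0.185% of the members under 2, 0.276% at 2 to 3, 2.41% at 3 to 5 (11 of 457) and 32.8% at 5 or more (20 of 61, 22.3 to 45.3%). Members that joined 2 best-connected bins held a call in 10 of 4252 cases (0.235%). None of the 53 pairs of last bins held a call, which allows a share of up to 5.66% by 3 counts of the total (Wilson upper limit 6.76%), and 14 of the 20 last bins hold a bait with a call.

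The pair with 79 calls joined chromosome 8 from 95 to 96 Mb, with the carboxylesterase genes Ces1a, Ces1d and their neighbours, and chromosome 11 from 69 to 70 Mb, with 129 Hi-C reads over 23.7 (5.43, 4.54 to 6.45). The pair with 42 calls joined chromosome 6 from 66 Mb, with Mad2l1 of the spindle checkpoint, and chromosome 11 from 46 Mb, with Cyfip2, at 95 reads over 16.3 (5.84, 4.73 to 7.14). The third, with 20 calls, joined chromosome 4 from 155 Mb, with Agrn, and chromosome 18 from 35 Mb at 85 over 12.5 (6.79, 5.42 to 8.39). In 2 of these 3 pairs no surrounding bin pair was listed, and in the pair of chromosomes 6 and 11 there was 1. The Hoxb and Hoxc bins held 6 calls. Among them was Hoxb7 with Hoxc5, seen from both baits with a normalised count of 4 reads each and scores of 8.87 and 7.93. The contact of 0610040B09Rik with Mir196a-2 was also called from both baits, so there were fewer contacts than calls. The Hoxb bin also held calls with the bin of Onecut3 on chromosome 10 (79 Mb, 3 calls, ratio 5.46), of Pax7 on chromosome 4 (139 Mb, 2 calls, 3.99) and of Pax2 on chromosome 19 (44 Mb, 1 call, 2.99). Here 5, 4 and 5 of the surrounding bin pairs were listed.

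The trans pairs left out because a bin starts under 10 Mb numbered 1511 and had the same median ratio of 2.06, with 7.41% at a ratio of at least 3 and a highest ratio of 73.9. The 14248 cis pairs of the list had a median ratio of 1.69 on a median of 138 reads, and 2.41% reached 3. Since a lower ratio suffices for a listing where more reads are expected (a median of 79.5 in cis and 16.3 in the members), these medians do not compare contact strength. Across bins, the numbers of cis and trans partners correlated weakly (r = 0.170, rho = 0.0306), but bins with at least 20 trans partners had a median of 18 cis partners, against 9 over all bins.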

How the data were processed

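Per the labels and the paper's methods, the authors mapped 1 mESC Hi-C library to mm9 with HiCUP (Bowtie 1.1.0, per the submitters' processing notes), which removed artefacts and duplicates, and called bin pairs with HOMER 4.7 on 1-Mb bins. The deposited read counts of the Hi-C list are raw read pairs per bin pair. The expected reads and the read ends per bin are coverage signals that HOMER computed and the authors deposited. The deposited FDR is a p-value corrected by HOMER for multiple tests (Benjamini-Hochberg), and its highest listed value was 0.0976. The authors took pairs under 0.05 as significant, and all listed pairs were kept here. The deposited CHi-C calls carry normalised read counts, rounded, and a CHiCAGO score of at least 5 that the authors computed on both replicates together. A further 3 columns of values were not used.

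Reads were divided by expected reads, with exact Poisson intervals, and shares have Wilson intervals (95% level). Bin factors were fitted to the logarithm of expected reads by least squares, and the script was tested on simulated data. Gene starts came from GENCODE M1 on NCBIM37, where the truncated last bins of 17 chromosomes ended within the chromosome. Python 3.11.15 with numpy 2.4.6, scipy 1.17.1 and pandas 2.3.3 was used. No test across bins was made, since neighbouring bins are not independent and bins of 1 library are not replicates. Named were the 12 bins with most partners, the 10 pairs with the highest ratio (at least 20 reads, FDR under 0.05), the 6 densest and 4 sparsest chromosome pairs, and up to 3 genes per named bin, first from the gene lists and then by CHi-C calls. The members and lists were chosen with earlier results of these data known. Alternatives covered the FDR, reads, ratio, bin start, chromosome ends and X. Some items are not reported here.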

Additional observations from a re-analysis of the deposited data

How the results depend on the processing

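No paired analysis was possible because the Hi-C data are 1 library and the CHi-C calls were made on both replicates together. Keeping pairs with an FDR under 0.05 left 6090 pairs at a median ratio of 2.17, raised the density of chromosomes 11 and 17 over all pairs from 5.40 to 6.25 times and the share of pairs joining 2 best-connected bins from 45.3 to 57.7%. A ratio of at least 2 left 5598 pairs at 2.25, with 4.63 times and 52.1%. At least 20 reads gave a ratio of 2.05 and 47.9%, a bin start of 20 Mb gave 49.2%, leaving out chromosome X gave a ratio of 2.05, and the sum of reads over the sum of expected reads was 2.13. The mean of gene starts in the best-connected bins was 3.22 times that of the others, 3.85 times with baited fragments, 2.70 times with all gene starts and 3.53 times in bins with read ends within the quartiles. With each pair of bins counted once, 20.3% of the pairs with a CHi-C call were listed, against 50.5% of the calls. The following were chosen after seeing the data. Without chromosomes 8 and 11, 6124 pairs remained at a ratio of 2.11, 39.3% joined 2 best-connected bins and 31.6% of the CHi-C calls lay in a pair. That share was 33.3% without the 2 pairs with most calls. Pairs of last bins were listed in 35.9% when last bins of at least 0.5 Mb were kept, and 19.7% passed at 10 expected reads and a ratio of 2.5. The ribosomal median of 6 became 10 without kinases and pseudogene names. Of the settings that moved values less, most were planned. Under these, the share of calls lay between 47.8 and 52.6% (7 settings) and the ratio of gene starts between 2.96 and 3.50 (8 settings). The partners near the end over those far from it were 2.24 times as many, and 1.75 times by relative position. The only change of sign was in the difference in median ratio between the members and the left-out trans pairs, 0.00105 as reported and -0.00814 at an FDR under 0.05. Depth limits pairs with chromosome X most, since 11539 of them had 10 or more expected reads, against 1872150 pairs of autosomes.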
